A study of Mus musculus with 16 samples.

Results

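The genes described here encode the proteins of the cytosolic ribosome. They were chosen by symbol alone: Rpl or Rps followed by a number and an optional ending, together with Rplp0, Rplp1, Rplp2 and Rpsa. Of 52916 gene symbols shared by all 16 expression tables, 90 met that rule, and symbols marked as pseudogenes were left out. The 90 comprise 51 genes of the large subunit, 36 of the small subunit and the 3 genes of the stalk, Rplp0, Rplp1 and Rplp2. HM1 tumours, a mouse ovarian cancer model, were taken from control mice or from mice given mannose, a simple sugar. RNA was sequenced in bulk from whole tumour tissue (5 control and 5 mannose libraries) and from CD8 T cells sorted from the tumours (3 control and 3 mannose libraries). The title of the series names an antibody against PD-1, and the labels of both control and mannose groups do not say whether one was given. Age, strain, mannose dose and time, and the animal behind each library are not in the labels. All 3 CD8 control tables carry a mannose heading on their value column, and the labels were followed. Values are TPM, a share of transcripts corrected for transcript length and scaled to a common total, and they carry no read depth.

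A ribosome has a small subunit, which reads the messenger RNA, and a large subunit, which joins the amino acids. Each particle holds a fixed set of ribosomal proteins in fixed proportions, and their messages are among the most abundant in growing cells. Many of them begin with a cytosine followed by a run of pyrimidines, the 5' terminal oligopyrimidine (TOP) motif, through which mTORC1 and LARP1 set how well they are translated. T cells enlarge and make more ribosomes when antigen activates them. A message level says nothing about how much of it is translated.

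Some libraries stood apart before any ribosomal protein gene was considered. Tumour control 1 had the lowest summed level of T cell markers, 13.6 TPM, against 21.9 to 139 TPM in the other 9 tumours. Its sum of macrophage markers was also the lowest, 2402 TPM, with tumour control 5 near it at 2696 TPM. Tumour mannose 3 had the highest of both sums (139 and 7211 TPM). All 12 T cell markers, Cd8a and Cd3e among them, were detected in both sample types, so detection alone does not check the CD8 label. Their sums were 3218 to 6715 TPM in the CD8 libraries, beside 13.6 to 139 TPM in the tumours. Macrophage markers were present too, at 4873 to 5193 TPM in the CD8 controls, beside 2402 to 7211 TPM in the tumours. Among the CD8 libraries, control 1 and control 2 used T cell receptor V segments in nearly the same proportions (r = 0.95 over 129 segments), as did mannose 1 and mannose 2 (r = 0.97). The other 13 pairs gave r between 0.43 and 0.72. Each group of 3 CD8 libraries may therefore hold fewer than 3 independent sources, and p-values measure only the spread between these libraries. Marker genes of other cells differed between the CD8 groups. Summed macrophage and monocyte markers were 4873 to 5193 TPM in the controls and 1627 to 2051 TPM with mannose, with all 14 lower and past the threshold. Summed carcinoma markers were 259 to 574 TPM in the controls and 1743 to 2669 TPM with mannose, with 5 of 6 tested genes higher and 1 lower past it. T cell markers summed to 6127 to 6715 TPM in the controls and 3218 to 6099 TPM with mannose, with 3 of 12 lower past it. Of other lists, 7 of 7 MHC class II, 5 of 6 neutrophil and 3 of 4 tested CD4 T cell list genes fell (median log2 differences -2.13, -1.44 and -0.94), and 7 of 10 fibroblast genes rose (median 1.55). The CD4 T cell list held Cd4, Foxp3, Il2ra, Ctla4 and Cd40lg, and which cells these transcripts came from was not tested. The MHC class II genes summed to 5705 to 5953 TPM in the controls and 1097 to 1485 TPM with mannose, the neutrophil genes to 1045 to 1265 TPM in the controls and 266 to 469 TPM with mannose, the CD4 genes to 444 to 462 TPM in the controls and 223 to 429 TPM with mannose and the fibroblast genes to 1069 to 1185 TPM in the controls and 975 to 1247 TPM with mannose. No marker of the macrophage list was at 0 in either CD8 group, and 1 of 12 carcinoma markers was at 0 in all 6 libraries. In bulk RNA, fewer cells of a type and less RNA per cell cannot be told apart.

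Ribosomal protein messages made up a large share of the transcript pool by TPM, larger in the tumour tables than in the CD8 tables. The 90 genes held 30.1, 26.0, 20.5, 25.9 and 20.7% of all TPM in the control tumours and 20.9, 22.5, 21.5, 25.4 and 24.6% in the mannose tumours, or 24.6% ± 4.05 and 23.0% ± 1.93 (SD, n = 5 each). In the CD8 libraries they held 17.0, 17.4 and 17.3% in the controls and 19.97, 19.4 and 17.7% with mannose, or 17.2% ± 0.178 and 19.0% ± 1.16 (SD, n = 3 each). The tumour groups overlapped and spread widely, and the 3 CD8 mannose libraries all lay above the 3 controls, mannose 3 by the smallest margin. The tumour and CD8 tables list different sets of entries, so levels in them are set side by side without a test. Of the 100 genes with the highest mean TPM, 49 in the control tumours and 44 in the CD8 controls were ribosomal protein genes. Between tumour libraries the large-subunit genes held 10.6% to 15.4% of TPM, the small-subunit genes 8.40% to 12.8% and the 3 stalk genes 1.33% to 1.85%. The summed TPM of small-subunit genes per TPM of large-subunit and stalk genes stayed within a narrow range, 0.694 to 0.758 in the tumours, 0.779 to 0.820 in the CD8 controls and 0.754 to 0.789 in the CD8 mannose libraries.

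**Figure D1:**
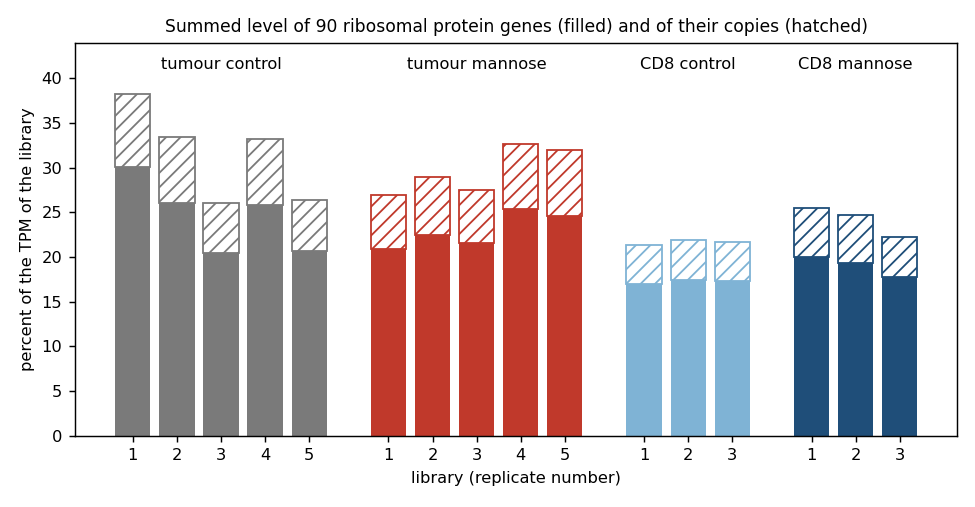
Percent of the TPM of each library held by the 90 ribosomal protein genes (filled bars) and, stacked on top, by genes that are near-identical copies of them (hatched). Each bar is 1 library. Tumour control 1 is the tallest at 30.1% for the genes themselves, and the 3 CD8 controls lie within 17.0% to 17.4%.

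Single members differed in level over several orders of magnitude. In the control tumours 69 of the 90 had a mean of 1000 TPM or more, 15 lay between 10 and 1000 TPM, and 6 were under 10 TPM. In the tumours some of the highest means belonged to Rplp1, an acidic stalk protein that contacts the elongation factors, Rpl36, Rps10 and Rps15, and in the CD8 libraries to Rpl13a, Rps27, Rpl23a and Rps24. Rplp1 was measured at 10077, 8529, 7234, 8767 and 6812 TPM in the control tumours, 6596, 7549, 7309.7, 7868 and 8111 TPM in the mannose tumours, 3480.3, 3838 and 3765 TPM in the CD8 controls and 4468, 4126 and 3968 TPM in the CD8 mannose libraries. Rpl13a, a large-subunit protein that also silences inflammatory messages when released from the ribosome, was at 7085 ± 1128 TPM in control tumours and 6534 ± 436 TPM in CD8 controls. In the tumour order Rps10, Rps15 and Rpl13a had means of 6652, 6612 and 6593 TPM and did not differ beyond their spread. At the other end Rpl10l, a copy of Rpl10 known from testis, was listed at 0 in all 16 libraries. Rpl3l, the muscle form of Rpl3, lay between 0 and 1.11 TPM, Rpl6l reached 0.170 TPM at most, and Rpl32l reached 2.37 TPM in a tumour and was listed at 0 in all CD8 libraries. These 4 genes did not pass the filter on low values in either mannose comparison, leaving 86 members tested in each.

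Pyrimidine runs of the TOP kind were more frequent near the starts of the members than near those of other genes. The windows printed here were chosen because they include 3 of the members with the largest CD8 differences (Rpl36a, Rpl37 and Rpl23), both genes of a paralog pair (Rps27 and Rps27l) and a run of 20 pyrimidines (Rpl27a). Of the 90, 65 were found in a RefSeq table of promoters on GRCm38.p6, each 300 bases long with 50 after the annotated start. Within 50 bases of that start, an unbroken run of at least 8 pyrimidines (C or T) lay on the coding strand in 83.1% of the 65 members, against 39.3% of all 27025 genes and 34.8% of 69 mitochondrial ribosomal protein genes. On the other strand the shares were 24.6% and 41.1%. In each window of 30 bases a longest such run is in capitals, and Rps27l holds another of equal length in lower case:
Rpl36a (chrX:134585673-134585702, plus strand): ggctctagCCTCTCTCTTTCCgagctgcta
Rpl37 (chr15:5116632-5116661, plus strand): gcgggggtgCTTTCTCTTCCggtctctttg
Rps6 (chr4:86857349-86857378, minus strand): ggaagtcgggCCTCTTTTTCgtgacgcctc
Rpl27a (chr7:109519186-109519215, plus strand): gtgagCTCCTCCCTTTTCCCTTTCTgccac
Rps27 (chr3:90213631-90213660, minus strand): tccgctttcgCTCCTTTCCggcggtgacga
Rps27l (chr9:66946064-66946093, plus strand): ctcctctccaCTCCTCCCCgccgcctctat
Rpl23 (chr11:97782404-97782433, minus strand): gagtgggcggggCCTCCCgttcatatccca
Rpl7l1 (chr17:46782670-46782699, minus strand): gtcgaggcgggCCTCTCTaccccgcccggt
Rpl36a holds a run of 13 pyrimidines, while Rpl23 and Rpl7l1 hold none of 8. At least 1 of 3 strings (CTCTTT, the like CTTTCC and the like CTTTTC), which overlap one another and lie inside such runs, was on the coding strand near the start of 55.4% of members and 12.6% of all genes. On the other strand they were there in 7.7% and 11.8%. The letters CCGGAAG, read on either strand and able to overlap a pyrimidine run, were within the 300 bases in 26 of 65 members, 37.7% of mitochondrial ribosomal protein genes and 9.9% of all genes. Of the members that rose with mannose in the CD8 comparison described later, 12 were in the promoter table and 9 of these have the run of 8, and of those not past the threshold 43 of 50 have it. A match is a match of letters and no measurement of a start site or a factor.

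Many members have near-identical copies elsewhere in the genome, and in these tables several copies are listed far above the gene itself. Retroposed copies of ribosomal protein messages are common in mammalian genomes, and short reads of identical sequence cannot be placed on one of them. Coding sequences of 84 members were compared with all transcripts of the GENCODE M21 annotation. Together with pseudogenes named for a member, 1025 copies in the tables were found, for 78 of the 90 members. Members were not counted as copies of one another, so likeness between members such as Rps3a1 and Rps3a2 was not examined. Over 10% of the TPM of a gene and its copies was listed under the copies for 27 members in tumours and 28 in CD8 libraries. Levels of these members are therefore uncertain. Rpl5, which joins 5S ribosomal RNA and Rpl11 and can bind the p53 regulator MDM2, is the clearest case, so its first 60 coding bases are set beside those of its copy Gm15500. The other pair is shown because its split differs between the tumour and CD8 tables, and capitals mark the bases that differ:
Rpl5 (coding bases 1 to 60): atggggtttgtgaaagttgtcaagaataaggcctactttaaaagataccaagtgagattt
Gm15500: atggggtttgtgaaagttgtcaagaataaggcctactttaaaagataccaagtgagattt
Rpl14 (coding bases 364 to 423): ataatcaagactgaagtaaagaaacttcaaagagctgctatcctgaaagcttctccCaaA
Rpl14-ps1: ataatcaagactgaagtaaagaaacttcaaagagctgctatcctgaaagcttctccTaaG
Gm15500 lies at chr7:114705217-114706235 of GRCm38 on the minus strand as a transcribed processed pseudogene. It matches all 894 coding bases of Rpl5, a gene at chr5:107900502-107909005. Rpl5 itself was listed at 58.5 to 86.4 TPM in control tumours while Gm15500 was listed at 1761 to 2622 TPM there. In the CD8 libraries Gm15500 was at 2150.4, 2034 and 2085 TPM in the CD8 controls and 2845, 2746 and 2355 TPM with mannose. Rpl14 and Rpl14-ps1 (chr7:45324965-45325617) differ at 7 of 654 bases. The copy held 73.7% of their summed TPM in tumours and 2.67% in CD8 libraries. Whether this difference came from the libraries or from the separate tables was not tested.

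**Figure D2:**
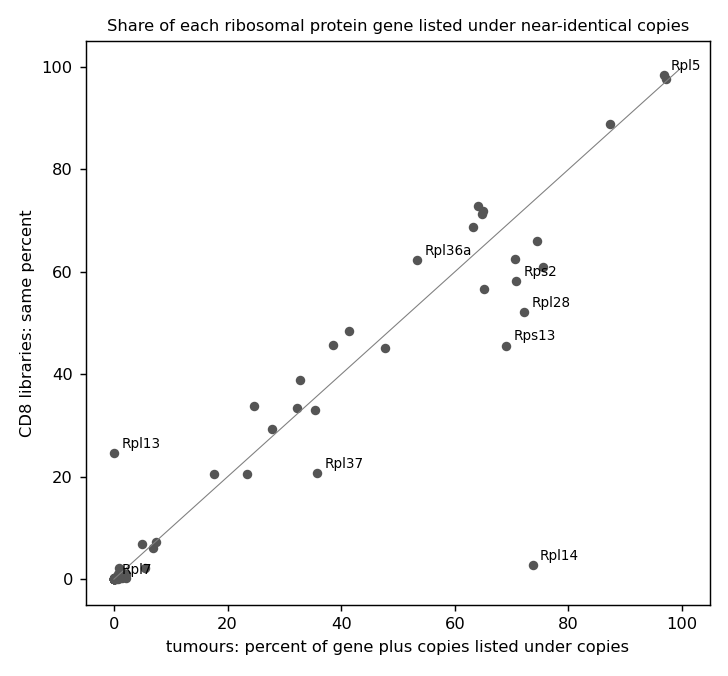
For members with a copy, the percent of the TPM of gene plus copies that is listed under the copies, as a mean of 10 tumour libraries (horizontal axis) and of 6 CD8 libraries (vertical axis). The line marks equal shares. Most genes lie near it, and Rpl14 (73.7% against 2.67%) and Rpl13 (0.0714% against 24.6%) lie far from it.

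The comparison of mannose with control tumours asked whether the supplement changed these genes in the tissue. No member passed the test in whole tumours. With limma, 0 of 86 tested members rose and 0 fell at an adjusted p under 0.05, beside 0% of 13282 genes tested, and at an unadjusted p under 0.05 there was 1 member beside 6.23% of genes. The median log2 difference over the members was -0.06, and over all genes it was 0.12. Of the members 20 of 86 (23.3%) had a positive difference, against 74.4% of all genes. That contrast depended on tumour control 1 and on some of the processing settings. Without control 1 the medians were 0.026 over members and 0.024 over all genes, and 50 of 86 members were positive. With all 10 tumours, the member median minus that of all genes, -0.18, was -0.017 after quantile normalization and -0.095 without the filter on low values. The other processing settings left it between -0.19 and -0.14. With median-ratio scaling 3 of 86 members were positive, and with array weights 5. With control 1 and mannose 3 left out the medians were 0.051 and 0.0096. No member had all mannose tumours above or all below the controls, beside 1.51% of genes above and 0.128% below.

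The 86 members varied together from tumour to tumour, without regard to the mannose groups. Tumour control 1 held the highest level of 62 of them. Controls 1, 2 and 4 and mannose 4 and 5 lay above the median tumour for 79, 83, 80, 81 and 75 of 86 members, and controls 3 and 5 and mannose 1, 2 and 3 for 7, 5, 2, 9 and 9. Both groups thus held high and low tumours. The genes did not all move by the same amount. Rplp0, the scaffold of the stalk, ranged from 4548 to 5606 TPM over the 10 tumours, whereas Rps20 was at 781, 319.6, 280.3, 306 and 281 TPM in the control tumours and 269, 248, 287, 299.98 and 473 TPM in the mannose tumours. For Rps20, a protein of the head of the small subunit, control 1 was 2.66-fold above the median tumour, the largest such deviation of any tested member in that library. Rps13, at 1156, 565, 543, 637 and 560.4 TPM in the controls and 535, 565, 595, 608 and 917 TPM with mannose, had the same high tumours, control 1 and mannose 5. For both genes most of the TPM of gene plus copies is listed under copies in the tumours (70.6% and 69.0%). Tumour control 1 also had the highest share of TPM in mitochondrial ribosomal protein genes, 0.607% against 0.476% to 0.554% in the other 9 tumours, and the low marker sums given above. It had the fewest genes at 1 TPM or more as well, 12345 against 13222 to 13820. The part of any of these in the pattern was not tested.

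**Figure D3:**
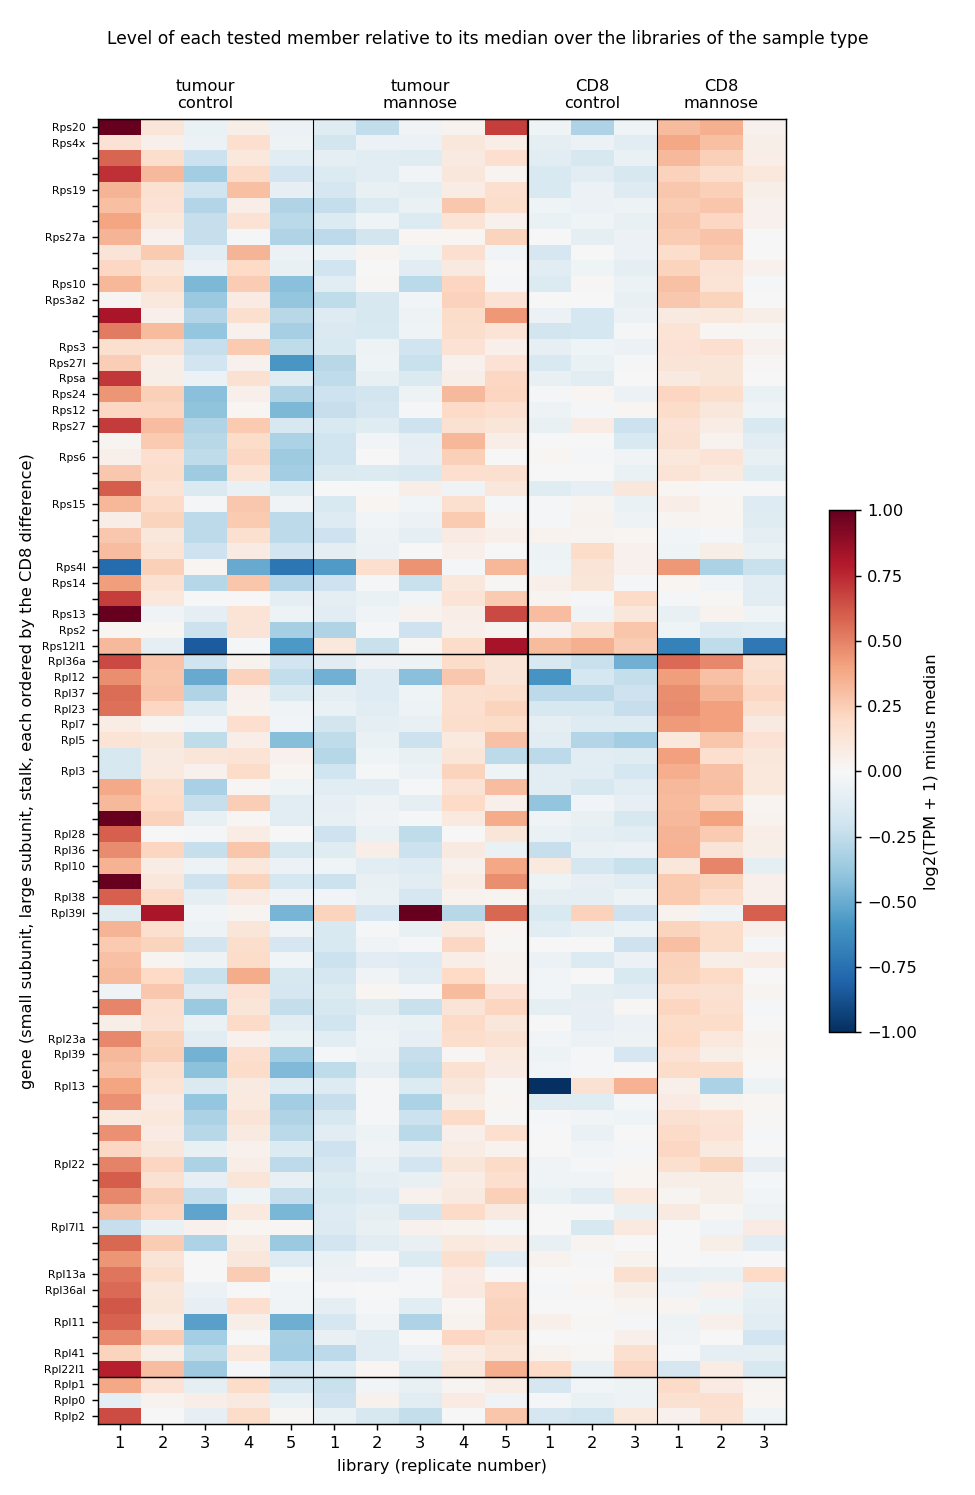
Heat map of 83 tested members (rows, with some of the genes named in the text labelled, grouped as small subunit, large subunit and stalk, each ordered by the CD8 difference) in the 16 libraries (columns). Colour is log2(TPM + 1) minus the gene's median over the 10 tumours or the 6 CD8 libraries, from -1 to 1. Tumour control 1 is red for nearly all genes (above the median for 79 of 86), and CD8 mannose 1 and 2 are red for 73 and 72 of 86.

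Among single genes in the tumours, no difference passed the threshold. Rps4l, a little-expressed relative of Rps4x, was at 5.66, 12.4, 10.5, 7 and 5.88 TPM in the control tumours and 6.69, 11.8, 14.5, 10.2 and 13.3 TPM in the mannose tumours, a log2 difference of 0.42 (SE 0.25, adjusted p = 0.754). Rps12l1, a gene named for its likeness to Rps12, was at 176, 131, 78.5, 139.6 and 94.2 TPM in the control tumours and 151, 121, 142, 159.6 and 249.8 TPM in the mannose tumours, a difference of 0.42 (SE 0.24, adjusted p = 0.754). The groups overlapped for both. Rpl39l, at 1.41 to 4.85 TPM in controls and 1.74 to 6.37 TPM with mannose, Rps3a2 and Rps12 came next, with log2 differences of 0.25, 0.095 and 0.07. Among the most negative differences were those of Rps20 (-0.23), Rpl28 (-0.21), Rpl13a (-0.20) and Rps27 (-0.20). All 9 of these genes had an adjusted p of at least 0.754 by limma. By subunit the median log2 differences were -0.076 over 47 large-subunit genes, -0.046 over 36 small-subunit genes and -0.14 over the 3 stalk genes.

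The comparison of the sorted CD8 libraries asked the same of T cells that had entered the tumours, and here 18 of 86 tested members rose with mannose and 1 fell by limma. As a share, 20.9% of members rose, beside 23.2% of all 14280 genes tested, so the share that rose was near the background. The share that fell was 1.16%, beside 11.7% of all genes. In either direction 19 of 86 passed, beside 34.9% of all genes, and at an unadjusted p under 0.05 there were 35 members, beside 46.3%. The members leaned upward by small amounts: 68 of 86 (79.1%) had a positive difference, beside 58.1% of all genes, and their median log2 difference was 0.17, beside 0.09. In 45 members (52.3%) every mannose library lay above every control, and in 5 (5.81%) every one lay below, beside 33.3% and 18.1% of all genes. With the like libraries averaged, so that control 1 and 2 counted once and mannose 1 and 2 once, 0 members rose and 1 fell, beside 7.55% and 3.88% of all genes. Under that setting the median was 0.14 over members and 0.11 over all genes, a gap of 0.031 against 0.078 with all 6 libraries. With median-ratio scaling, which moves the median of all genes to -0.021, 5 rose and 2 fell (over all genes 2578 and 2534, against 3306 and 1674 without it), 55 of 86 were positive and the median over members was 0.047. Without mannose 3, the library nearest to the controls, 45 rose and 1 fell (52.3% and 1.16%), beside 24.4% and 17.0% of all genes. Leaving out any other single CD8 library left 4 to 7 members that rose (4.65% to 8.14%), beside 13.0% to 17.9% of all genes. Mannose 3 was the lowest of the mannose libraries in 74 of 86 members. The CD8 mannose libraries also had lower macrophage, MHC class II, neutrophil and CD4 T cell list sums and a higher sum of carcinoma markers. Of the fibroblast genes 7 of 10 rose, while their sum did not (means of 1129 TPM in the controls and 1089 TPM with mannose). The part of these marker differences in the differences of the members was not tested.

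**Figure D4:**
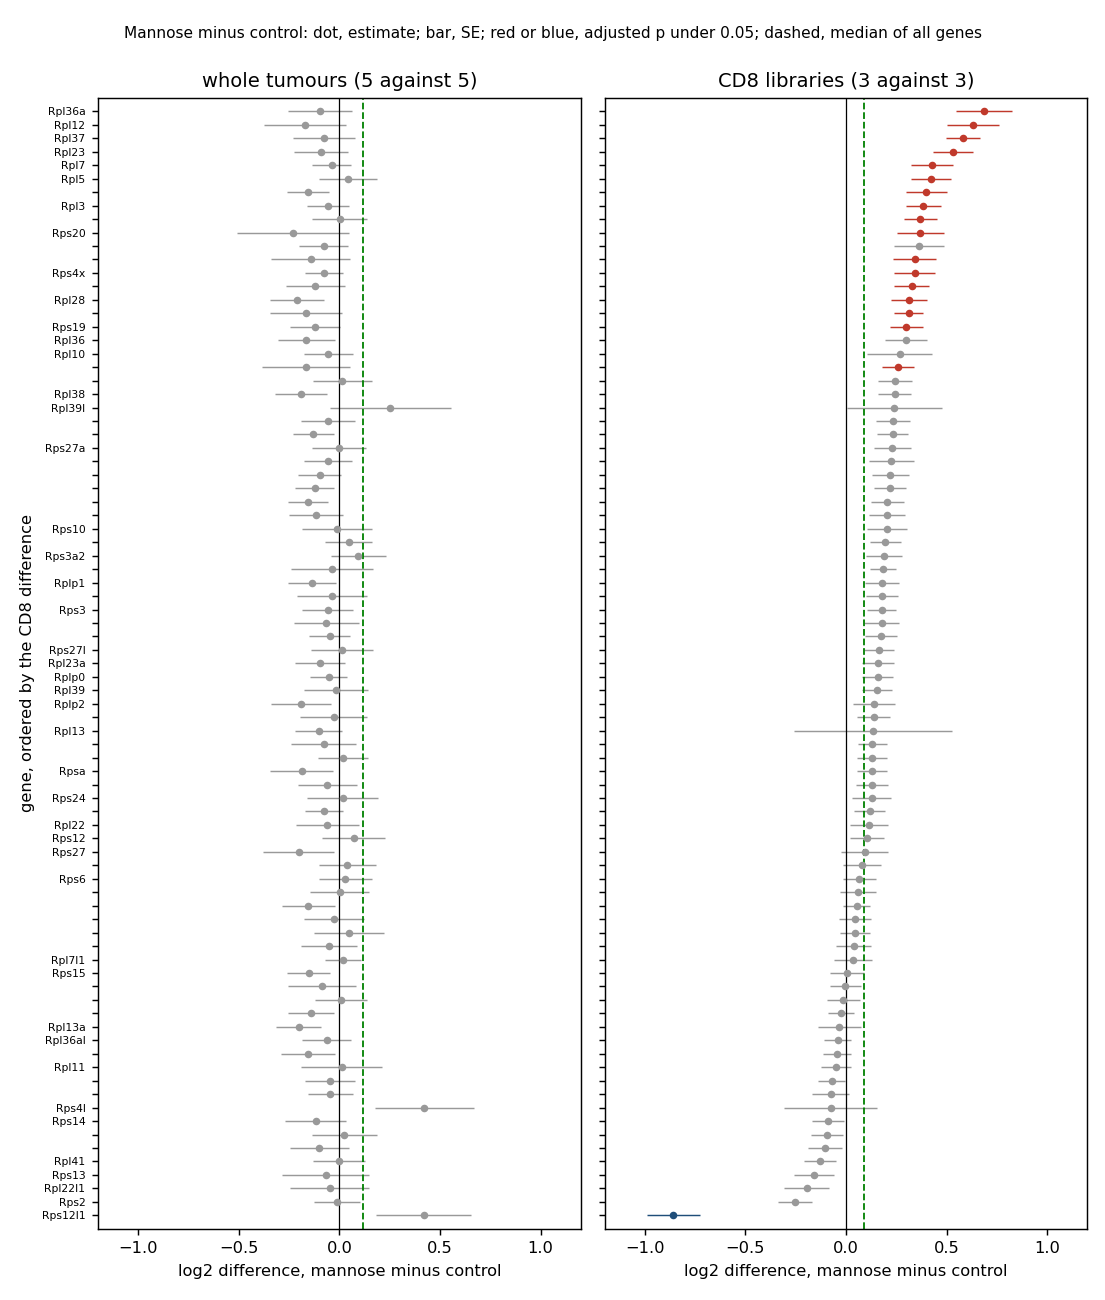
Log2 difference between mannose and control for 83 tested members, in tumours (left) and CD8 libraries (right), in the order of the CD8 difference, with some of the genes named in the text labelled. Dots are limma estimates, bars their SE, red or blue an adjusted p under 0.05, and the dashed line the median of all genes. No dot is coloured in the tumours, and 17 red and 1 blue dots stand in the CD8 panel.

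Of the large subunit, 12 of 47 tested genes rose (25.5%, beside 23.2% of all genes) and 0 fell. Rpl36a, which sits near the exit site for used transfer RNA, had the largest rise, at 1359, 1294 and 1084 TPM in the controls and 2242, 2111 and 1678 TPM with mannose, a log2 difference of 0.69 (SE 0.14, adjusted p = 0.00996). Rpl37, a zinc-binding protein that can bind MDM2, was at 911, 912 and 949 TPM in the controls and 1513, 1381 and 1262 TPM with mannose, a difference of 0.58 (SE 0.085, adjusted p = 0.00358). Rpl23, another MDM2-binding protein, which lies on the face that meets the small subunit, was at 1478, 1483 and 1411 TPM in the controls and 2299, 2197 and 1849.6 TPM with mannose, a difference of 0.53 (SE 0.10, adjusted p = 0.00725). In all 3 genes mannose 1 and 2 were the highest libraries and mannose 3 lay between them and the controls. Rpl7, whose paralog Rpl7l1 acts in assembly, was at 1824, 1782 and 1777 TPM in the controls and 2616, 2588 and 2073 TPM with mannose and rose by 0.43 (SE 0.11, adjusted p = 0.0209). Rpl12, which lies at the base of the stalk beside Rplp0, rose by 0.63 (SE 0.13, adjusted p = 0.011) from a low listed level, 48.6, 65.2 and 62.6 TPM in the controls and 98.8, 90.8 and 83.7 TPM with mannose. Most of the TPM of Rpl12 and its copies is listed under Gm10275 (97.7% in all copies), and with copies added the difference was 0.21 and not past the threshold (adjusted p = 0.109). For Rpl36a and Rpl37, with 62.3% and 20.7% of the sum in copies, the difference with copies added was 0.59 and 0.52 and stayed past the threshold. For Rpl23 and Rpl7 copies hold 0.0698% and 0.0314%. Among these 5 genes the adjusted p with the like libraries averaged lay between 0.055 and 0.175.

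The other 7 large-subunit genes that rose were Rpl5, Rpl10a, Rpl3, Rpl30, Rpl21, Rpl28 and Rpl14, with log2 differences from 0.26 (Rpl14) to 0.42 (Rpl5). Rpl3, which lies by the peptidyl transferase centre, was at 1406, 1397 and 1341 TPM in the controls and 1943, 1854 and 1625 TPM with mannose. Rpl5 was at 37.3, 32.7 and 31.5 TPM in the controls and 43.5, 49.0 and 44.6 TPM with mannose, and its copy Gm15500 was also higher in every mannose library. Rpl11, the partner of Rpl5 in the 5S particle, was at 2290.2, 2235 and 2196 TPM in the controls and 2141, 2299 and 2050.4 TPM with mannose and did not follow it, with a difference of -0.052 (SE 0.075, adjusted p = 0.629). Rpl10, which completes the catalytic centre late in assembly, was at 894, 736 and 716 TPM in the controls and 901, 1170.0 and 777 TPM with mannose, and mannose 3 lay within the range of the controls. Rpl38, known for its part in the translation of Hox messages, was at 2791, 2789.8 and 2865 TPM in the controls and 3555, 3380.2 and 3073 TPM with mannose, all mannose libraries above the controls, with a difference of 0.24 (SE 0.082, adjusted p = 0.0583) that missed the threshold. Rpl13a stood at 6268, 6298 and 7038 TPM in the controls and 5972, 6008 and 7232 TPM with mannose, a difference of -0.033. Rpl41, which encodes the shortest ribosomal protein, stood at 3950.3, 3885 and 4316 TPM in the controls and 3841, 3639.5 and 3619 TPM with mannose, all mannose libraries below the controls, with a difference of -0.13 that did not pass. Over all large-subunit genes that did not pass, the differences ran from -0.19 (Rpl22l1) to 0.36 (Rpl27a). Rpl13 had the largest spread between the CD8 controls of all tested members. CD8 control 1 was listed at 631 TPM against 1183 to 1881 TPM in the other 5 CD8 libraries, and its copy Gm12918 was at 634, 224 and 94.0 TPM in the CD8 controls and 487, 601 and 416 TPM with mannose, highest in that same control.

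**Figure D5:**
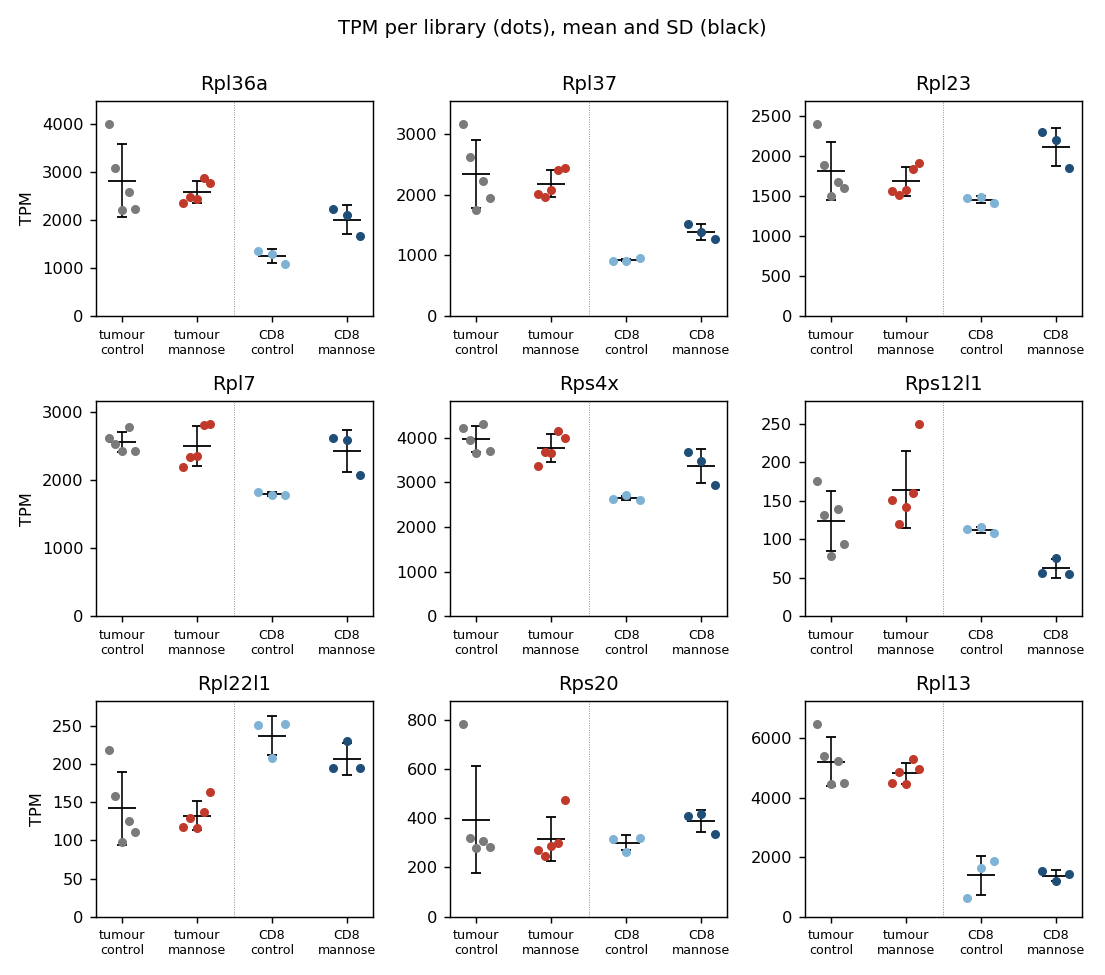
TPM of 9 members in each library (dots), with the mean and SD of each group in black. The axes start at 0. For Rpl36a, Rpl37, Rpl23, Rpl7 and Rps4x all CD8 mannose libraries lie above the CD8 controls, for Rps12l1 all lie below (75.8 TPM at most against 108 TPM at least), and in the tumours the groups overlap in every panel.

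Of the small subunit, 6 of 36 tested genes rose and 1 fell (16.7% and 2.78%, beside 23.2% and 11.7% of all genes). Rps19, the gene most often mutated in Diamond-Blackfan anaemia, was at 803, 857 and 816 TPM in the controls and 1074, 1052 and 928 TPM with mannose, a log2 difference of 0.30 (SE 0.082, adjusted p = 0.0293). Rps4x, the X-linked form of Rps4, was at 2635, 2707 and 2609 TPM in the controls and 3686, 3483 and 2943 TPM with mannose, a difference of 0.34 (SE 0.10, adjusted p = 0.0377). The groups did not overlap in either gene, and mannose 3 was the mannose library nearest to the controls. Rps20, Rps28 and Rps21 also rose, by 0.37, 0.33 and 0.31. Rps6, the substrate of S6 kinase, showed no such separation, at 2582, 2511 and 2485 TPM in the controls and 2732, 2805 and 2413 TPM with mannose, a difference of 0.066 (SE 0.084). Rps14, whose loss underlies a form of myelodysplastic syndrome, was at 3098, 3255 and 2942 TPM in the controls and 3034, 2936 and 2756 TPM with mannose, a difference of -0.091. Rps3, which also acts in DNA repair, was at 2342, 2405 and 2373 TPM in the controls and 2734, 2782 and 2548 TPM with mannose, all mannose libraries above the controls, with a difference of 0.18 (SE 0.072, adjusted p = 0.0964) that did not pass. Rpsa, which is also a laminin receptor, was at 1778 to 1937 TPM in the controls and 1920.0 to 2094 TPM with mannose. Rps27a, made as a fusion with ubiquitin, was at 1465, 1380.1 and 1414 TPM in the controls and 1751, 1789 and 1475 TPM with mannose, a difference of 0.23 (SE 0.094, adjusted p = 0.0975), without overlap but not past the threshold. Over all small-subunit genes that did not pass, the differences ran from -0.25 (Rps2) to 0.24 (Rps3a1).

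Rps12l1 was the member that went the other way. It was at 113, 116 and 108 TPM in the controls and 56.2, 75.8 and 54.7 TPM with mannose, so that each mannose library lay below each control, and it fell by 0.86 on the log2 scale (SE 0.13, limma adjusted p = 0.00415). Its fall stayed past the threshold under all 18 alternative settings, the like libraries averaged among them (adjusted p = 0.0364). Rps12 itself was at 3081, 3137 and 3236 TPM in the controls and 3619, 3456 and 3100.4 TPM with mannose, with overlapping groups. Rps12l1 had no coding sequence in the annotation used for the copies, so how its sequence compares with that of Rps12 was not examined. Rps2, which lies at the entry of the messenger RNA channel, was also lower in every mannose library, at 935, 1017 and 1101 TPM in the controls and 884, 831 and 841 TPM with mannose, and its difference of -0.25 (SE 0.083, adjusted p = 0.0528) missed the threshold. Its copy Rps2-ps10 was at 1019, 1169 and 1160.2 TPM in the CD8 controls and 1680.2, 1457 and 1297 TPM with mannose, higher in every mannose library. With copies added the difference of Rps2 was 0.13 (adjusted p = 0.35), a direction opposite to that of the gene alone. Over all members 15 rose and 1 fell with copies added: Rpl12, Rpl14, Rpl21 and Rps28 no longer passed.

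The 3 stalk genes were measured higher in the CD8 mannose libraries on average, none past the threshold. Rplp0 was at 2888, 2788 and 2833 TPM in the controls and 3248, 3279.7 and 2967 TPM with mannose and Rplp1 at the values given above, both without overlap between groups. Rplp2, the other acidic stalk protein, was at 1239.9, 1211 and 1498 TPM in the controls and 1434, 1546 and 1353 TPM with mannose, with overlapping groups. The log2 differences were 0.16, 0.18 and 0.14, with adjusted p of 0.152, 0.142 and 0.349. In the tumours all 3 differences were negative, from -0.19 to -0.054, and did not pass either. Rack1, a scaffold on the small subunit, and Fau, made as a fusion with a ubiquitin-like protein, belong to the ribosome but lie outside the symbol rule. Neither passed in either comparison. In the CD8 libraries Rack1 was at 1807, 1685 and 1694 TPM in the controls and 2159, 1906 and 1870.3 TPM with mannose, without overlap. Fau was at 2371, 2447 and 2609 TPM in the controls and 2860.2, 2603 and 2685 TPM with mannose, and the groups overlapped.

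Several ribosomal proteins are encoded by a main gene and a paralog that can take its place. Expressed as a percent of the main gene's TPM, Rpl22l1 stood at 9.80% to 12.7% of Rpl22 in the 10 tumours. In the CD8 libraries it stood at 20.6, 16.7 and 20.04% in the controls and 13.9, 15.8 and 16.5% with mannose, the 2 groups not overlapping. Rpl22 is known to hold down Rpl22l1 and is needed for the development of T cells with the alpha-beta receptor. Rpl22l1 itself was at 251, 208 and 252 TPM in the controls and 194, 231 and 195 TPM with mannose. Rpl22 was at 1218, 1243 and 1258 TPM in the controls and 1396, 1461 and 1182 TPM with mannose. The groups overlapped for each, and neither passed the test (log2 differences of -0.19 and 0.11). Rpl36al stood at 23.4% to 29.4% of Rpl36a in the tumours, at 48.4, 52.5 and 64.4% in the CD8 controls and at 29.2, 32.6 and 37.9% in the CD8 mannose libraries. Rpl36al itself was at 658, 679.9 and 697 TPM in the controls and 654, 688 and 637 TPM with mannose, with a difference of -0.041, so that the lower percent went with the rise of Rpl36a. Copies of Rpl36a hold more TPM than the gene (62.3% of the sum), and the percents leave them out. Rps27l, a target of p53, was at 243 to 433 TPM in control tumours and 300.5 to 403 TPM with mannose, and at 229, 243 and 252 TPM in the controls and 278, 277 and 256 TPM with mannose in the CD8 libraries. Its log2 difference there was 0.16 (SE 0.074, adjusted p = 0.127), and it stood at 3.57% to 4.53% of Rps27 in the CD8 controls. Rpl7l1, whose product acts in the assembly of the large subunit, was at 43.6 to 52.5 TPM in CD8 controls and 47.7 to 51.7 TPM with mannose, and did not follow the rise of Rpl7. Rpl39l, known from male germ cells, reached 6.37 TPM at most in a tumour and 2.79 TPM in a CD8 library, beside 1012 to 1120.3 TPM for Rpl39 in the CD8 controls.

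An interaction over all 16 libraries tested whether a gene's mannose minus control difference was the same in CD8 libraries and whole tumours. Marker sums of other cells differed between the CD8 groups, and their part in the interaction was not tested. The test passed for 8 of 87 tested members in the direction of a higher CD8 difference and for 1 in the other. As shares these are 9.20% and 1.15%, beside 11% and 7.64% of 15498 genes tested, so the higher share was near the background. In either direction 9 of 87 passed, beside 18.7% of genes, and at an unadjusted p under 0.05 there were 20 members, beside 31.2%. A positive interaction was measured in 72 of 87 members, beside 50% of genes. The size of that lean depended on tumour control 1. With all 16 libraries the median interaction of members minus that of all genes was 0.217. It was 0.0695 without tumour control 1, where 65 of 87 members were positive. Without the 2 tumours that stood apart it was 0.0557, and 62 of 86 were positive. With all 16 libraries, the members past the threshold with a higher CD8 difference included Rpl36a, Rpl37, Rpl23, Rpl10a, Rpl7, Rpl3 and Rps4x. With copies added Rpl36a, Rpl37 and Rpl3 no longer passed (limma adjusted p = 0.0815, 0.181 and 0.108), while Rpl23, Rpl10a, Rpl7 and Rps4x did. Rpl10a is a protein of the L1 stalk that guides used transfer RNA out. In the CD8 libraries it was at 1809, 1999.8 and 1989 TPM in the controls and 2888, 2433 and 2352 TPM with mannose. In the tumours it was at 4329 to 5322 TPM in the controls and 3970.3 to 5258 TPM with mannose. Its CD8 difference exceeded its tumour difference by 0.56 (SE 0.15, limma adjusted p = 0.0199). Rps12l1 gave the largest interaction, -1.28 (SE 0.35, adjusted p = 0.0172), with a CD8 difference of -0.86 beside 0.42 in the tumours. With the like CD8 libraries averaged 0 members were called in either direction, and without the 2 tumours that stood apart 4 and 1.

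Set side by side, the control CD8 libraries and the control tumours ranked the members alike, with a few exceptions. Over the 84 members with a mean of 10 TPM or more in both, the log2 means correlated with r = 0.94, a description across genes that share libraries and annotation. The CD8 mean was a median of 0.737 times the tumour mean. Across these, in 45 members every CD8 control lay below every control tumour, and in 1 every one lay above, beside 24.3% and 34.7% of the 6436 genes with such means in both, whose median ratio was 1.07. Among the lowest ratios were those of Rpl13 (0.266), Rpl12 (0.367) and Rpl10a (0.385). With copies added Rpl13 stood at 0.327, Rpl12 at 0.575 and Rpl10a at 0.383. The highest ratios were those of Rpl22l1 (1.67), Rps13 (1.54), Rps27a (1.44) and Rpl14 (1.40). With copies added Rpl22l1 and Rps27a kept theirs (1.67 and 1.42), while Rps13 and Rpl14 stood at 0.855 and 0.407, below 1. These 7 genes were chosen for their ratios.

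Genes that make, use or govern ribosomes were read beside the members in the CD8 libraries, and none of them passed in the tumours. Of 58 ribosome assembly genes 20 rose and 0 fell (34.5% and 0%, median log2 difference 0.21), and of 37 translation factors 11 rose and 0 fell (29.7% and 0%, median 0.19). Over all genes 23.2% rose and 11.7% fell, with a median of 0.09. Npm1, a nucleolar chaperone that carries ribosomal proteins, was at 651, 659.9 and 571 TPM in the controls and 1299, 1275 and 960.0 TPM with mannose, a difference of 0.90 (SE 0.13, adjusted p = 0.00364). Sbds, which with Efl1 releases eIF6 from the new large subunit, was at 51.3, 51.8 and 47.2 TPM in the controls and 87.8, 79.6 and 80.1 TPM with mannose, a difference of 0.71. Efl1 was at 9.53, 10.0 and 8.87 TPM in the controls and 20.6, 16.7 and 19.4 TPM with mannose, a difference of 0.93. Nob1, which trims the RNA of the small subunit, rose by 0.65 (SE 0.10, adjusted p = 0.00358). Among the translation factors Eef1d, part of the exchange factor of elongation, was at 291, 267 and 267 TPM in the controls and 546, 503 and 413 TPM with mannose, with the controls close together and mannose 3 the lowest of the mannose libraries. Eif4b, which helps the helicase eIF4A, was at 199, 185 and 169.8 TPM in the controls and 333, 315 and 267 TPM with mannose. Pabpc1, the poly(A)-binding protein whose own message is of the TOP type, was at 964, 922 and 786 TPM in the controls and 1469.6, 1389 and 1262 TPM with mannose. These 7 genes were named for having among the smallest p of their lists here, so the lack of overlap in all 7 is no further support. Every mannose library lay above every control in 33.3% of all genes. With the like libraries averaged 4 assembly genes and 2 translation factors rose and none fell. With median-ratio scaling 15 and 4 rose and 5 and 1 fell.

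Of 22 tested regulators 4 rose and 2 fell in the CD8 libraries (18.2% and 9.09%), near the shares of all genes just given. With median-ratio scaling 2 rose and 3 fell, and with the like libraries averaged 0 rose and 1 fell. Myc, which drives the transcription of ribosomal protein and assembly genes, was at 33.2, 33.3 and 26.8 TPM in the controls and 70.7, 64.0 and 42.2 TPM with mannose, a log2 difference of 0.88 (SE 0.20, adjusted p = 0.0158), and at 117, 135, 106, 132 and 118 TPM in the control and 116, 117, 102, 102 and 103 TPM in the mannose tumours. Mxd1, which opposes Myc at its sites, fell by 1.43 on the log2 scale, and Cdkn1a, the p53 target that halts the cell cycle, by 0.84, while Mdm2, the p53 regulator that several free ribosomal proteins bind, rose by 0.45 (SE 0.091, adjusted p = 0.0104). With the like libraries averaged Cdkn1a passed (adjusted p = 0.0336) and Myc, Mdm2 and Mxd1 did not (adjusted p = 0.105, 0.0572 and 0.0603). Of 78 mitochondrial ribosomal protein genes, which serve the separate ribosome of the mitochondrion, 15 rose and 1 fell (19.2% and 1.28%), with a median of 0.051. That split depended on the scaling: 6 rose and 8 fell with median-ratio scaling (median -0.066), 8 and 6 with quantile normalization (median -0.012), and with the like libraries averaged 1 rose and 0 fell. These genes held 0.360% ± 0.0180 of TPM in the CD8 controls and 0.366% ± 0.00619 with mannose (SD, n = 3 each). Macrophage and carcinoma cells also express the regulators and assembly genes. In the CD8 libraries macrophage markers were lower with mannose, and carcinoma markers were higher (mean sums of 469 TPM in the controls and 2233 TPM with mannose). The part of either in these counts was not tested. In the tumours the genes with the smallest p among translation factors, regulators and assembly genes were Eif4e, the cap-binding protein (0.42), Gabpa, an ETS transcription factor (0.53), and Gar1, part of the RNA-modifying particles of the nucleolus (-0.27), each with a limma adjusted p of 0.754.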

How the data were processed

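The study measured RNA in bulk in 10 tumour and 6 sorted CD8 T cell libraries of mice. The authors deposited 1 table of TPM per library, a unit read from the values, which are given per gene. Per the submitters' processing notes, the tools included RSEM, HISAT and fastp and the build named was GRCm39. No version or role is given. Depth is not known from TPM. Rows of 1 symbol were summed. Groups were taken from the labels, and the members and gene lists were chosen with earlier results of these data known. Values were compared as log2(TPM + 1), which understates changes of low genes. A gene was tested where 1 TPM was reached in a number of libraries no smaller than the smaller group. Tests were made with limma 3.58.1 in R 4.3.3 (moderated, two-sided, Benjamini-Hochberg adjusted over all genes tested, threshold 0.05). Tumours and CD8 libraries were fitted separately, and the interaction over all 16 libraries. The test was checked on simulated data with errors drawn independently for each gene and library. Such data hold no libraries that are alike, so the check does not cover the like CD8 libraries.

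Copies were genes of GENCODE M21 (GRCm38), other than members, with at least 90% identity over at least 80% of a member's coding sequence. They were found by BLAST 2.17.0, and pseudogenes named for a member were added. Copies were added to their member as an alternative chosen after seeing the data. Promoter sequences and starts are those of RefSeq on GRCm38.p6, and coordinates printed are of GRCm38, not of the build named in the notes. Genes named are those with the 5 largest differences in each direction, the 5 highest levels and the 5 largest spreads, paralog pairs, a panel of known roles and up to 4 genes per related list. Those of the related lists were the genes with the smallest p in a comparison, together with Myc. The alternatives were other pseudocounts, filters, scalings, array weights, a replicate block, a joint fit, libraries left out, and the like CD8 libraries averaged. Same-numbered control and mannose libraries did not deviate together (r from -0.457 to 0.241 in the tumours and 0.057 to 0.163 in CD8), so the numbers were not taken as pairs. Results of a few genes are not reported here. Figures were drawn with matplotlib 3.10.9.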

Additional observations from a re-analysis of the deposited data

Results flagged for a closer look

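Of 94 groups of 5 tumour values examined, 9 held 1 library far from the other 4, and tumour control 1 accounted for 5 of these. A chance rate of about 1 in 20 groups is no yardstick here. Rps20 and Rpl39l were among the members named for their large spread, and the groups share the same tumour libraries. In tumour control 1 Rpl28 was at 1796 TPM against 1172 to 1252 TPM in the other controls, and Rpl36al was at 988 TPM against 640.3 to 724 TPM. Rps13 was at 1156 TPM against 543 to 637 TPM, Rps20 at 781 TPM against 280.3 to 319.6 TPM, and Rpsa at 4651 TPM against 2626 to 3169 TPM. Tumour mannose 5 stood above the other mannose tumours for Rps13 (917 TPM against 535 to 608 TPM) and Rps20 (473 TPM against 248 to 299.98 TPM). Rpl39l was at 4.85 TPM in tumour control 2 against 1.41 to 2.39 TPM, and Rpl3l was at 1.11 TPM in tumour control 3 against 0.17 to 0.28 TPM. These last values are near the low end of what the tables list.

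By the interaction test, the mannose minus control difference was unlike in CD8 libraries and tumours for 9 members, of which 8 are given. Marker sums of other cells also differed between the CD8 groups, and their part in these results was not tested. On the log2 scale, the CD8 difference minus the tumour difference was 0.78 for Rpl36a, 0.66 for Rpl37, 0.62 for Rpl23, 0.56 for Rpl10a, 0.47 for Rpl7, 0.44 for Rpl3 and 0.42 for Rps4x. For Rps12l1 it was -1.28. The limma adjusted p lay between 0.0172 (Rps12l1) and 0.0483 (Rpl37), and with the like CD8 libraries averaged none of the 9 passed, the lowest adjusted p being 0.0627 for Rps12l1. With copies added Rpl36a, Rpl37 and Rpl3 did not pass, and the other genes named here did.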

How the results depend on the processing

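In the tumours no member passed under any alternative or with any library left out. The member median minus that of all genes was -0.18 and ranged from -0.29 to 0.0015 with 1 library left out (0.0015 without control 1). It was 0.041 without control 1 and mannose 3. The mannose minus control difference in percent of TPM was -1.64 points, -4.95 with median-ratio scaling, 0.0786 without those tumours, and -2.67 to -0.28 with 1 library left out. In the CD8 libraries 19 members passed. The count was 6 without a filter, 7 with median-ratio scaling, 27 with quantile normalization, 59 with array weights, 8 in the joint fit and 1 with the like libraries averaged. It was 5 to 46 with 1 library left out, 46 without mannose 3, and 18 with the replicate block. The member median minus that of all genes was 0.08 (0.03 to 0.13 with 1 library left out), and the difference in percent of TPM was 1.78 points, 0.279 with median-ratio scaling and 1.31 to 2.43 with 1 library left out. For the interaction 9 passed: 1 without a filter, 0 with median-ratio scaling, 3 with the replicate block, 39 with array weights, 5 without the 2 tumours, 0 with the like libraries averaged and 0 to 11 with 1 library left out. The replicate block moved no other count by over 1.5 times. The cause was not tested for these changes, other than that leaving out libraries leaves fewer of them. No named member reversed direction past the threshold. Groups of 3 libraries, some of them alike, limit the precision, and TPM gives no depth.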
